A study of Oryza sativa Japonica Group with 8 samples.

Results

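The WRKY family was followed in leaf transcriptomes of rice grown with or without carbon dots. The members were taken by identifier from a given list of 55 WRKY genes, and all 55 were found among the 55801 genes of the count table. The list is one of family membership, drawn up with earlier results of these data known. Here the family means these 55 members, and whether the list holds every rice WRKY gene was not checked. Sums, shares and ranks below are over the listed members only. The list was stated to include WRKY45, WRKY53, WRKY62, WRKY70, WRKY71 and WRKY76. The reference table of gene names supplied WRKY24, WRKY51, WRKY62, WRKY71 and WRKY76 for 5 of the identifiers. It holds no record for WRKY45, WRKY53 or WRKY70, which are written here for LOC_Os05g25770, LOC_Os05g27730 and LOC_Os05g39720 from the general rice nomenclature. All other members are given by identifier only.

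WRKY proteins are plant transcription factors named after a short conserved stretch of amino acids in their DNA binding domain, which is followed by a zinc finger. They bind W boxes, promoter elements with a TTGAC core, and many W boxes lie in the promoters of WRKY genes themselves. In leaves they are best known from immunity, where pathogen elicitors, salicylate and MAP kinases induce or activate some members, and where some members activate and others repress defence genes. Others act in abiotic stress, senescence and hormone responses.

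All 4 RNA-seq libraries were made from leaves of seedlings of the Japonica cultivar Nipponbare raised from surface-sterilized seed. The 2 CD libraries came from seedlings raised on 1/2 MS, a diluted mineral salt medium, with 0.56 mg/ml carbon dots, which are nanometre-sized carbon particles, and the 2 CK libraries from seedlings on the same medium with none. The labels give an age of 2 weeks and the protocol a growth of 3 weeks, which leaves the age at harvest unclear, and they do not say whether replicates were separate plants or cultures. P-values are thus limited to the spread of these 4 libraries, and that spread may be technical. Of the 8 samples in the series, 4 are bisulfite samples, which were not analysed here.

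The total count per library was 74853055 for CD replicate 1, 49281927 for CD replicate 2, 80317398 for CK replicate 1 and 60763633 for CK replicate 2. No pair of libraries agreed within sampling noise (chi-square of 69.3 to 189.8 per degree of freedom). The first principal component (51.9% of the variance) set CD replicate 1, at -58.6, apart from CD replicate 2, at 4.8, and the CK libraries, at 38.7 and 15. The second (29.7%) set CD replicate 2, at -46.7, apart from CD replicate 1, at 11.1, and the CK libraries, at 14.4 and 21.2. Leaf photosynthesis transcripts were abundant in every library. The 6 genes listed for them summed to 22100 and 14130 TPM in the CD libraries and 29670 and 41670 TPM in the CK libraries. The 4 root genes summed to 31.3 to 43.1 TPM. The root silicon exporter gene LSI2 had 0 counts throughout, while LSI1 was at 21.2 to 24.3 TPM and NRAMP5 at 8.07 to 18.4 TPM. The meristem gene OSH1 was counted 117 and 42 times in CK and 0 times in either CD library (DESeq2 adjusted p = 0.000107, edgeR 0.46), while PCNA, a gene of dividing cells, was at 20.7 to 23.3 CPM. The 3 secondary wall genes summed to 344 and 695 TPM in CD and 550 and 361 TPM in CK. Water stress genes were high in CD replicate 1. RAB21, a dehydrin gene, was at 56.5 CPM (counts scaled to library size) in CD replicate 1, 0.597 CPM in CD replicate 2 and 0.309 and 1.80 CPM in CK, and SALT, a salt-induced gene, was at 1030 CPM there against 345, 185 and 109 CPM in the others. LEA3, a late embryogenesis abundant protein gene, was highest there too, at 3.08 CPM, and at 0, 0.232 and 0.411 CPM in the others. The 3 genes summed to 1513, 464, 232 and 139 TPM in the same order of libraries. The part of these markers in the WRKY results was not tested.

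WRKY transcripts were higher in CD replicate 1 than in any other library, while CD replicate 2 lay close to the controls for the family as a whole. Summed over the 55 members, WRKY transcripts made up 1875 TPM in CD replicate 1, 942 TPM in CD replicate 2, and 823 and 817 TPM in CK replicates 1 and 2. The sum in CD replicate 2 lay slightly above both CK libraries. In bulk leaf RNA, more cells of a type and more RNA per cell cannot be told apart. The 53 members with counts all passed the filter on low counts. Of these, 38 had a log2 fold change (CD minus CK) above 0, which is 71.7% of them, against 51.0% of the 26271 genes tested, and 15 were below 0 (28.3%, against 49.0%). Above 0 were 28 of 53 on leaving out CD replicate 1, against 49.4% of all genes, and 43 of 53 on leaving out CD replicate 2, against 47.2%. A log2 fold change of at least 1 was seen in 14 members (26.4%, against 4.06% of all genes), and of at most -1 in 1 member (1.89%, against 3.49%). The count of at least 1 was 6 on leaving out CD replicate 1 and 25 on leaving out CD replicate 2. The share of all genes is not given for those fits, and the 4.06% does not apply to them. Both CD libraries lay above both CK libraries for 21 members (39.6%), against 17.8% of all genes, and below both for 7 members (13.2%), against 20.7% of all genes. The members share the same libraries, so these counts are not independent observations.

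No member passed the main test, and neither did any other gene. edgeR's quasi-likelihood test with Benjamini-Hochberg adjustment called 0 of 26271 genes (0.0%) at an adjusted p of 0.05, and limma-voom called 0. At an unadjusted p under 0.05 edgeR had 12 members higher (22.6%, against 3.33% of all genes) and 1 lower (1.89%, against 5.37%). The count of 12 rose on leaving out CD replicate 2 and fell on leaving out any other library, fits in which a group rests on a single sample. No share of all genes at that p is given for those fits, and the 3.33% does not apply to them. DESeq2, run as an alternative, called 5 members higher at an adjusted p of 0.05 (9.43%, against 0.757% of all genes) and 0 lower (against 1.15%). These 5 were LOC_Os11g02520, LOC_Os11g02540, WRKY45, LOC_Os03g21710 and LOC_Os05g46020. In simulated data with 50 genes changed at each of 4 folds among 25901 fitted, 69 of 178 DESeq2 calls and 14 of 103 edgeR calls were false. Those shares depend on how many genes were changed. Of genes changed by 1.5, 2 and 4-fold, edgeR recovered 0, 2 and 38 of 50, and DESeq2 2, 14 and 44. Lack of a call is thus not evidence of no change. The members' median log2 fold change was 0.60, against 0.01 over all genes, with quartiles of -0.02 and 1.03 and extremes of -1.24 and 2.34. Leaving out CD replicate 1 brought it to 0.01, and leaving out CD replicate 2 to 0.95.

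**Figure D1:**
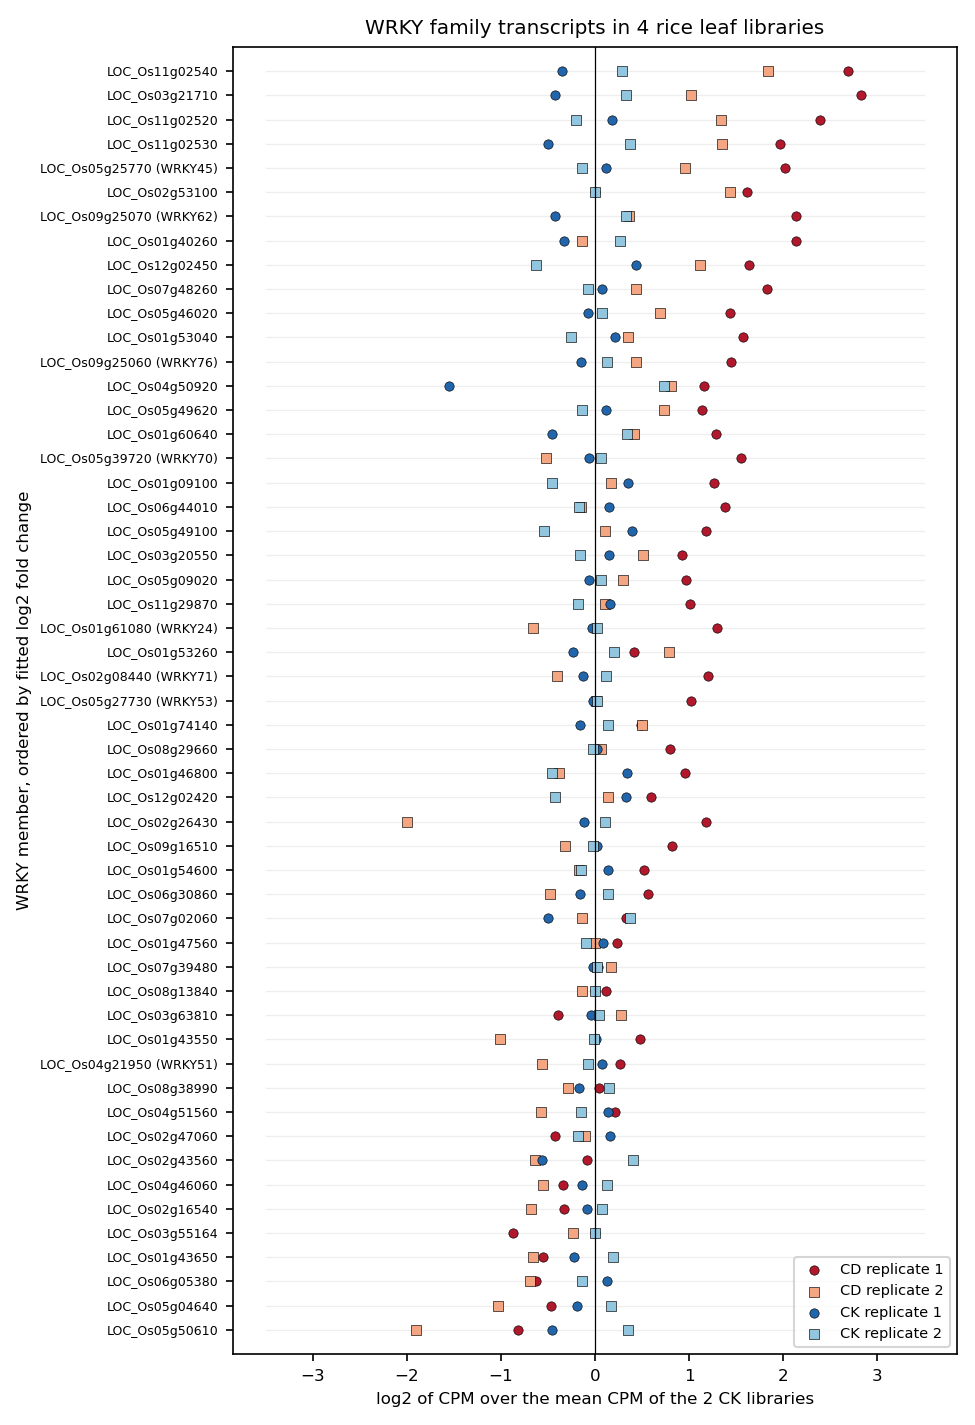
Each row is a WRKY member and each point a library, placed by the log2 of its CPM over the mean CPM of the 2 CK libraries (vertical line at 0). Rows are ordered by fitted log2 fold change, from -1.24 at the bottom to 2.34 at the top, and the dark red points of CD replicate 1 lie to the right of both CK points for 41 of the 53 members, while those of CD replicate 2 do so for 22.

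The family spanned a wide range of levels. By mean TPM, which is scaled by gene length, 9 members stood at 50 or more, 11 at 10 to under 50, 27 at 1 to under 10 and 6 above 0 but under 1, and 2 had no counts. The 5 most abundant members were WRKY53, WRKY71, WRKY45, LOC_Os04g51560 and WRKY76, with means of 113, 109, 94.6, 74.9 and 70.4 TPM. Together they held 43.8% and 39.1% of the listed members' TPM in the CD libraries and 39.9% and 40.4% in the CK libraries. WRKY53 and WRKY71 were among the top 4 members in every library. WRKY45 ranked second in both CD libraries, and 6 and 7 in the CK libraries. LOC_Os11g02520 ranked 4 and 3 in CD, and 10 and 14 in CK. LOC_Os04g51560 went the other way in rank, at 7 in both CD libraries and 2 and 3 in CK, although its TPM was 95.6 and 54.0 in CD and 82.6 and 67.5 in CK. Its groups overlap, so the lower rank came with no separation in its own level.

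**Figure D2:**
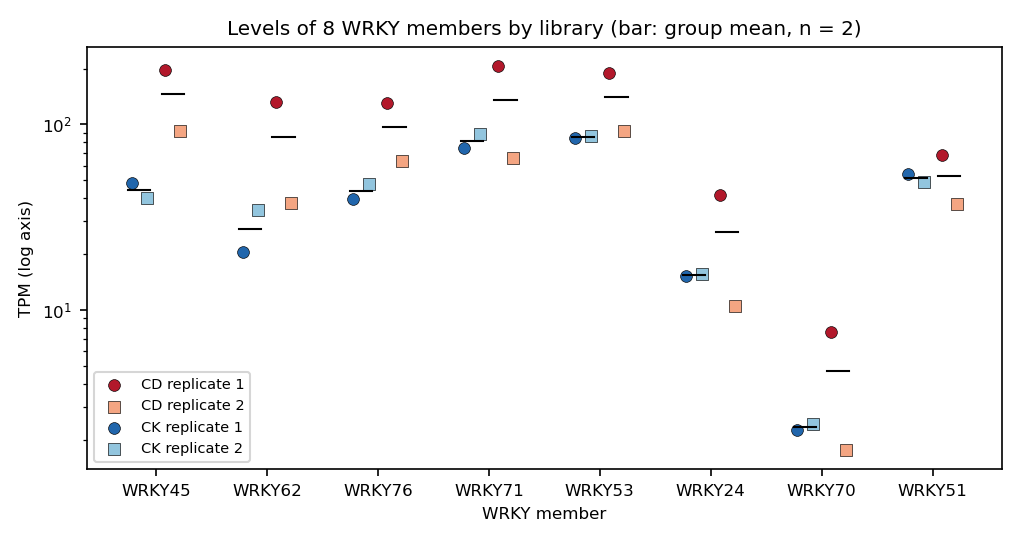
Levels in TPM (log axis) of the 8 members with a name, one point per library, with bars at the mean of each group (n = 2). WRKY45 and WRKY76 have both CD points above both CK points with a visible gap, and WRKY62 and WRKY53 barely so. On the CPM scale the groups of WRKY53 overlap. For WRKY71, WRKY24, WRKY70 and WRKY51 CD replicate 2 lies below both CK points.

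WRKY45 (LOC_Os05g25770, chromosome 5 from 14991579 to 14993800 in the coordinates of the count table, 3 exon blocks) is known as a factor needed for blast resistance induced by benzothiadiazole, in a branch of salicylate signalling separate from NPR1. It was counted 12400 and 3787 times in the CD libraries and 3272 and 2061 times in CK, or 157 and 75.4 CPM against 42.1 and 35.3 CPM. Both CD libraries were above both CK libraries, and CD replicate 1 was about as far above CD replicate 2 as that was above CK. The log2 fold change was 1.59 ± 0.37 (SE), with an adjusted p of 0.46 by edgeR, 0.00643 by DESeq2. Leaving out CD replicate 1 gave 0.96, and leaving out CD replicate 2 gave 2.02. WRKY45 took 10.5% and 9.81% of the listed members' TPM in CD and 5.84% and 4.93% in CK.

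WRKY62 and WRKY76 lie next to each other on chromosome 9, on the minus strand, from 14975932 to 14994888 with 15089 bases between them, and WRKY71 lies on chromosome 2. The 3 proteins belong to the same subgroup, IIa, of the family. WRKY62, also called XB10 for its binding to the XA21 receptor kinase, and WRKY76 have been described as repressors of defence when overexpressed. WRKY76 was at 113 and 56.4 CPM in the CD libraries, compared to 37.6 and 45.6 CPM in CK. Its groups did not overlap, and its log2 fold change was 1.03 ± 0.36 (adjusted p = 0.528 by edgeR, 0.171 by DESeq2), or 0.44 without CD replicate 1. WRKY62 was at 101 and 29.5 CPM against 17.1 and 28.8 CPM. CD replicate 2 and CK replicate 2 were nearly level, so the log2 fold change of 1.51 ± 0.62 (adjusted p = 0.584 by edgeR, 0.164 by DESeq2) came down to 0.37 without CD replicate 1. WRKY71, a repressor of gibberellin-induced amylase genes in the aleurone that also acts in defence, was at 225 and 73.8 CPM against 89.4 and 106 CPM. CD replicate 1 was the highest library and CD replicate 2 the lowest. The log2 fold change of 0.61 ± 0.52 (adjusted p = 0.845 by edgeR) turned to -0.41 without CD replicate 1.

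WRKY53, WRKY24 and WRKY70 are group I members, which carry a pair of WRKY domains. WRKY53 is induced by chitin elicitors and is phosphorylated by a MAP kinase cascade, WRKY24 represses gibberellin and abscisic acid responses in aleurone cells, and WRKY70 is known from the response to chewing insects. WRKY53 was at 206 CPM in CD replicate 1, with 102 CPM in CD replicate 2 and 100 and 103 CPM in CK. The other 3 libraries were level, and the log2 fold change of 0.60 ± 0.34 (adjusted p = 0.711 by edgeR) was 0.01 without CD replicate 1. WRKY70 was at 8.99 and 2.13 CPM against 2.92 and 3.19 CPM, a log2 fold change of 0.87 ± 0.67 (adjusted p = 0.821 by edgeR) that turned to -0.52 without CD replicate 1. WRKY24, chosen after its values were seen because it has a name, was at 47.0 and 12.1 CPM against 18.8 and 19.5 CPM. For WRKY24 too, CD replicate 1 was highest and CD replicate 2 lowest (log2 fold change 0.63 ± 0.61, or -0.66 without CD replicate 1). WRKY51, chosen on the same ground, is a partner of WRKY71 in repressing amylase genes in the aleurone. It was at 61.9 and 34.7 CPM against 54.0 and 48.9 CPM, a log2 fold change of -0.09 ± 0.30, with -0.57 on leaving out CD replicate 1 and 0.26 on leaving out CD replicate 2.

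Of the 4 highest fold changes, 3 lay in a run of members on chromosome 11, LOC_Os11g02520, LOC_Os11g02530 and LOC_Os11g02540, on the minus strand from 782358 to 795608, with gaps of 4030 and 4085 bases. LOC_Os11g02520 was at 74.9 and 36.2 CPM in the CD libraries, compared to 16.1 and 12.4 CPM in CK. Even the lower CD library was over 2-fold above both CK libraries, and the log2 fold change was 1.96 ± 0.39 (adjusted p = 0.46 by edgeR, 0.00036 by DESeq2). LOC_Os11g02540 was much scarcer, at 5.73 and 3.18 CPM against 0.695 and 1.08 CPM, with a log2 fold change of 2.34 ± 0.44 (adjusted p = 0.46 by edgeR, 0.000469 by DESeq2). LOC_Os11g02530, at 2.28 and 1.49 CPM against 0.412 and 0.754 CPM, had 1.71 ± 0.48 (adjusted p = 0.474 by edgeR, 0.0923 by DESeq2). All 3 kept a gap between the groups. Without CD replicate 1 their log2 fold changes were 1.34, 1.37 and 1.85 in order along the chromosome, and without CD replicate 2 they were 2.39, 1.98 and 2.69.

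The genes around that run that are not on the list had values on both sides of 0. Whether any of these neighbours, here or around the other groups, is itself a WRKY gene was not checked. Of 13 other genes tested within 50 kb, 7 were above 0, with a median log2 fold change of 0.01 and extremes of -1.19 and 1.02, and DESeq2 called 0 of them. Around WRKY62 and WRKY76 the 7 other genes tested had a median of -0.05, with extremes of -0.82 and 0.55. On chromosome 12, LOC_Os12g02420 and LOC_Os12g02450 lie 18204 bases apart, between 802489 and 825793. The ends of chromosomes 11 and 12 carry a known duplicated segment, so reads of similar copies there could have been split or lost in the counting, and values of these 5 members are uncertain to that extent. LOC_Os12g02450 was at 2.31 and 1.61 CPM against 1.00 and 0.480 CPM, a log2 fold change of 1.39 ± 0.49 (adjusted p = 0.532 by edgeR), which was 1.11 without CD replicate 1 and 2.03 without CK replicate 1. LOC_Os12g02420 overlapped between the groups, at 11.9 and 8.66 CPM against 9.83 and 5.86 CPM (0.39 ± 0.33, or 0.14 without CD replicate 1 and 0.07 without CK replicate 2).

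**Figure D3:**
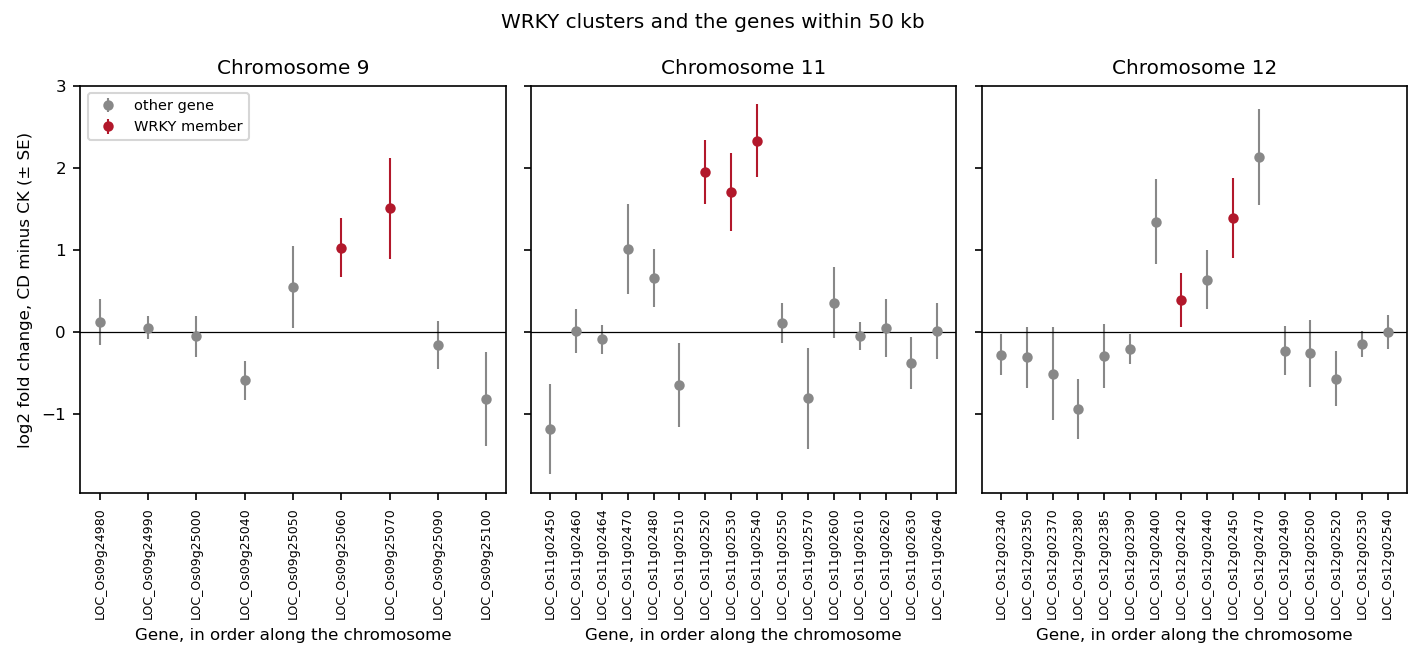
Log2 fold change (CD minus CK, with SE bars) of each tested gene within 50 kb of the WRKY groups on chromosomes 9, 11 and 12. Genes are in order along the chromosome, with listed WRKY members in red and genes not on the list in grey. Whether grey genes are WRKY genes themselves was not checked. The 3 members on chromosome 11 lie at 1.71 to 2.34, above the 13 other genes there, whose values run from -1.19 to 1.02, while on chromosome 12 a grey gene at 2.14 lies above both members.

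Outside these groups, 2 further members were called higher by DESeq2. LOC_Os03g21710 (chromosome 3 from 12394669 to 12396898) was at 17.5 and 5.02 CPM in the CD libraries, compared to 1.83 and 3.1 CPM in CK. CD replicate 1 was the highest by far, and CD replicate 2 still exceeded both CK libraries. Its log2 fold change was 2.20 ± 0.66 (adjusted p = 0.486 by edgeR, 0.0207 by DESeq2), or 1.03 without CD replicate 1 and 2.83 without CD replicate 2. LOC_Os05g46020 (chromosome 5 from 26682472 to 26684208) was at 51.7 and 30.9 CPM against 18.1 and 20.1 CPM. Its groups stood clear of each other, with a log2 fold change of 1.11 ± 0.28 (adjusted p = 0.469 by edgeR, 0.0431 by DESeq2), or 0.69 without CD replicate 1. LOC_Os02g53100, one of the scarcest members, had 25 and 14 counts with carbon dots and 8 and 6 in the control. Its CD libraries were close to each other, at 0.317 and 0.279 CPM, and its log2 fold change was 1.52 ± 0.56 (adjusted p = 0.551 by edgeR) with 1.42 without CD replicate 1.

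A smaller set of members lay lower with carbon dots without overlap, in a smaller share than among all genes (13.2%, against 20.7%). None of them passed an adjusted threshold. The 7 members with both CD libraries below both CK libraries had log2 fold changes from -0.43 to -1.24. LOC_Os05g50610 had the lowest value, at 1.39 and 0.657 CPM against 1.78 and 3.12 CPM (-1.24 ± 0.52, adjusted p = 0.587 by edgeR), and was at -0.78 without CK replicate 2 and -1.89 without CD replicate 1. LOC_Os06g05380 was at 5.13 and 4.90 CPM against 8.64 and 7.21 CPM (-0.66 ± 0.22, adjusted p = 0.518 by edgeR), and was at -0.69 without CD replicate 1. It was the only member lower at an unadjusted p under 0.05 (0.0275). LOC_Os05g04640 was at 5.53 and 3.72 CPM against 6.69 and 8.56 CPM (-0.72 ± 0.29, or -1.03 without CD replicate 1). LOC_Os01g43650 had -0.60 ± 0.32, LOC_Os03g55164 -0.52 ± 0.25 (-0.24 without CD replicate 1), LOC_Os02g16540 -0.49 ± 0.20 and LOC_Os04g46060 -0.43 ± 0.32. In LOC_Os03g55164 alone of these 7, CD replicate 1 was the lowest library, at 11 CPM against 17.1 CPM in CD replicate 2 and 20.1 and 20.2 CPM in CK.

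The members LOC_Os05g40060 and LOC_Os05g40080, which lie 20111 bases apart on chromosome 5, had 0 counts in all 4 libraries. A count of 0 allows up to 3 counts, which is 0.038 to 0.0597 CPM in these libraries and covers counting error only.

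The rule for describing members left 31, WRKY24 and WRKY51 among them. Of these, 11 stood higher in CD with no overlap, with log2 fold changes from 0.10 to 1.30 and a median of 0.73. The rule had already taken the called members and the largest changes without overlap. The lack of calls and the upper end of that range follow from this choice. Over all members tested, 39.6% stood higher with no overlap, against 17.8% of all genes. The lowest adjusted p of the 11 was 0.183 by DESeq2 and 0.51 by edgeR. The other 20 overlapped between the groups, with log2 fold changes from -0.33 to 1.41, or -1.97 to 0.28 without CD replicate 1. These 31 members had mean levels from 0.346 to 58.1 TPM.

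The CD replicates differed from each other more than the CK replicates did across the family. CD replicate 1 exceeded CD replicate 2 for 47 of 53 members (88.7%), against 49.5% of all genes, and by over 2-fold for 21 members (39.6%), against 9.44% of all genes. No member was over 2-fold higher in CD replicate 2 than in CD replicate 1 (against 4.88% of all genes). Between the CK replicates, 1 member was over 2-fold higher in replicate 1 (1.89%, against 4.45% of all genes) and 1 in replicate 2 (1.89%, against 4.11%), and 24 members were higher in replicate 1 (45.3%, against 50.7%). Relative to each member's mean over the 4 libraries, the members' median level on the scale log2(CPM + 0.5) was 0.55 in CD replicate 1, -0.13 in CD replicate 2, and -0.18 and -0.15 in CK. Of the 17 members above 0 whose groups overlapped, 16 had CD replicate 1 above both CK libraries, and in 7 of those CD replicate 2 was below both. With CD replicate 1 the higher CD library in most members, the 16 is largely set by that selection. No share of all genes selected in the same way is given. CD replicate 1 was above both CK libraries for 41 members (77.4%), against 36.2% of all genes, and below both for 9 (17.0%), against 39.2%. CD replicate 2 was above both CK libraries for 22 of 53 members (41.5%), against 35.6% of all genes, and below both for 20 (37.7%), against 36.6%. Its shares thus lay near the background.

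**Figure D4:**
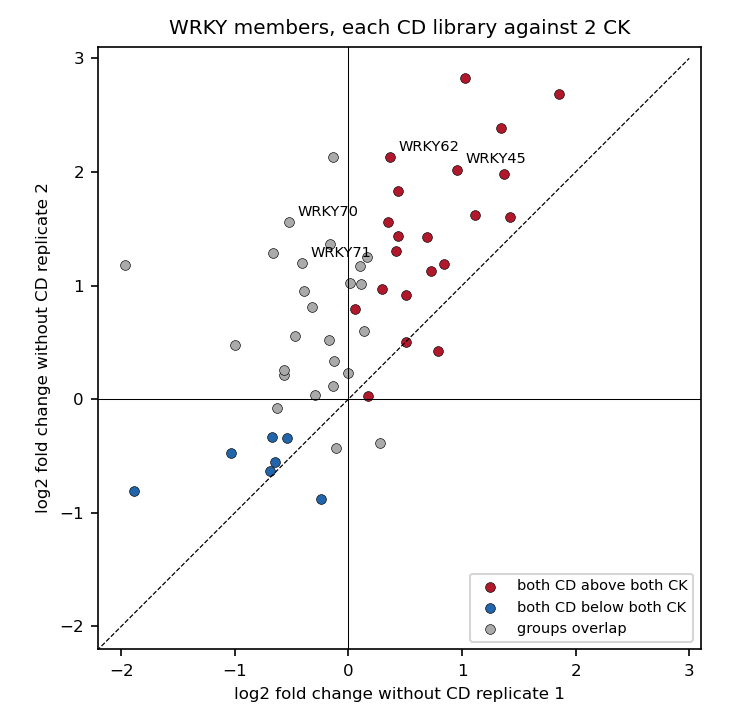
Log2 fold change of each of the 53 tested members without CD replicate 1 (x axis) and without CD replicate 2 (y axis), so that each axis rests on a single CD library and the same 2 CK libraries; the dashed line marks equal values. Most points lie above the line, 28 members are above 0 on the x axis and 43 on the y axis, and WRKY70 and WRKY71 lie left of 0 on the x axis.

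Genes that act with these factors were described for context, from lists of 10 genes of elicitor perception and MAP kinases, 8 of salicylate signalling and 15 of diterpenoid phytoalexin synthesis and related defence. In the perception list 7 of 10 genes tested were above 0 and DESeq2 called 0, with a median log2 fold change of 0.17 (0.01 without CD replicate 1 and -0.01 without CK replicate 1). MPK3, a kinase of the cascade that acts on WRKY53, was at 125 and 61.6 CPM in the CD libraries, compared to 37.3 and 67.3 CPM in CK (0.84 ± 0.44, with 0.24 and 1.26 on leaving out CD replicates 1 and 2, and 0.48 and 1.33 on leaving out CK replicates 1 and 2). The chitin-binding receptor gene CEBiP was at 156 and 69.3 CPM against 69.1 and 115 CPM (0.30 ± 0.45, with -0.41 on leaving out CD replicate 1 and -0.02 on leaving out CK replicate 1), and the chitin receptor kinase gene CERK1 was at 86.4 and 77.0 CPM against 61.2 and 66.1 CPM (0.36 ± 0.15, or 0.27 without CD replicate 1). In the salicylate list all 7 genes tested were above 0 and DESeq2 called 0, with a median of 0.42 (0.08 without CD replicate 1). The remaining gene of that list, LOC_Os01g28450, did not pass the filter, with 198 and 0 counts in CD and 10 and 6 in CK. For comparison with these lists, 51.0% of all genes were above 0, and DESeq2 called 0.757% higher and 1.15% lower. NPR1, the regulator of the other branch of salicylate signalling, was at 57.1 and 37.5 CPM against 34.1 and 33.7 CPM (0.48 ± 0.23, or 0.15 without CD replicate 1), and its relatives NPR2 and NPR3 had 0.07 ± 0.17 and 0.42 ± 0.30 (-0.08 and -0.06 without CD replicate 1). RAC1, the other gene of the perception list with a matched name, went the other way, at 5.13 and 7.92 CPM against 8.93 and 8.8 CPM. Its log2 fold change was -0.44 ± 0.27, with -0.16 and -0.79 on leaving out CD replicates 1 and 2. MPK3, CEBiP, CERK1, RAC1 and NPR1 were chosen after their values were seen. In the phytoalexin list 14 of 15 genes were above 0, with a median of 1.43 (0.70 without CD replicate 1), and DESeq2 called 4 higher (26.7%, against 0.757% of all genes). KSL7, a diterpene synthase gene, had 323 and 50 counts in CD and 16 and 2 in CK (4.33 ± 1.04, adjusted p = 0.46 by edgeR, 0.000902 by DESeq2, and 2.97, 4.99, 6.15 and 3.63 on leaving out CD replicates 1 and 2 and CK replicates 1 and 2 in turn). CPS4, a copalyl diphosphate synthase gene of momilactone synthesis, was at 7.62 and 3.6 CPM against 1.74 and 0.771 CPM (2.15 ± 0.57, adjusted p = 0.47 by edgeR, 0.0137 by DESeq2, and 1.51 without CD replicate 1, 2.87 without CK replicate 1). The probenazole-inducible defence gene PBZ1 was at 94.5 and 82.1 CPM against 19.3 and 27.0 CPM (1.93 ± 0.22, adjusted p = 0.46 by edgeR, 8.52e-09 by DESeq2). Both CD libraries were nearly level in PBZ1, unlike in WRKY45, and without CD replicate 1 it was at 1.83.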

How the data were processed

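The authors deposited raw read counts per gene, laid out as featureCounts writes them, and TPM values, per the file headers. The deposited TPM values matched counts divided by exon length and rescaled, within 1e-05. The submitters' processing notes name fastp 0.21.0, HISAT2 2.0.5 and featureCounts 1.6.4 among other tools, without saying what each did. Neither the genome build nor any use of strand is stated, so overlapping and antisense genes may share reads.

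The comparison of CD with CK used edgeR 4.0.16 in R 4.3.3. TMM scaling and the quasi-likelihood F test were applied to all 26271 genes that filterByExpr kept, and p-values were adjusted by Benjamini-Hochberg (threshold 0.05). SE is the log2 fold change over the square root of F. CPM uses TMM library sizes. The fit was repeated with DESeq2 1.42.0, with limma-voom (limma 3.58.1), with limma on log2(TPM + 1) or log2(TPM + 0.1), with RLE or total count scaling, with no filter, with a filter of 1 CPM in 2 libraries, with a replicate block, at an adjusted p of 0.01, and without each library in turn. The procedure was tested on simulated data.

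Names were checked in a RefSeq table of another assembly (ASM3414082v1) by symbol, chromosome, span and neighbouring genes, which matched 5 of 55 members and 29 of 51 genes of the other lists. No sequences were used here. The members and lists were chosen with earlier results of these data known. Members described were those the list names, those called, up to 8 with the largest changes in each direction without overlap, the 5 with the highest mean TPM and those within 50 kb of another member, 24 in all. Of related lists, up to 3 genes called by DESeq2 or else the 2 with the highest mean CPM were taken, and named where the name matched, which left none for the perception list, and markers are given as sums with examples. A crossed replicate block was added after seeing the data.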

Additional observations from a re-analysis of the deposited data

How the results depend on the processing

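Of the 22 described members with counts, 19 kept their direction under each of the 14 alternatives that gave a value. LOC_Os02g53100, which has none under the filter of 1 CPM in 2 libraries, is among them. Most of the 22 had groups that did not overlap, in many cases a ground for choosing them. Leaving out 1 library could hardly reverse such members, so the 19 is largely set by the choice. The 3 that reversed, WRKY70, WRKY71 and LOC_Os04g51560, all had overlapping groups. Leaving out 1 library, WRKY70 ran from -0.52 (without CD replicate 1) to 1.56, WRKY71 from -0.41 (without CD replicate 1) to 1.2, and LOC_Os04g51560 (-0.13) from -0.57 to 0.21 (without CD replicate 2), with 0.03 without CK replicate 1. Over all genes, edgeR called 29 with no filter and DESeq2 502, of which 5 were members, and the other alternatives called 0, as did an adjusted p of 0.01. With total count scaling the members' median was 0.72, and that of all genes shifted by 0.1 (log2). Leaving out each library in turn gave a members' median of 0.01 to 0.95, 28 to 43 members above 0, 4 to 24 higher members at an unadjusted p under 0.05, 22 to 41 members wholly above and 8 to 20 wholly below CK, and list medians of -0.01 to 0.38 (perception), 0.08 to 0.77 (salicylate) and 0.7 to 1.9 (phytoalexins). The phytoalexin median was 0.59 with log2(TPM + 1), which understates changes of scarce genes. Without 1 library, a group rests on a single sample assumed to vary like the other group, and the cause of the shifts was not tested. For these fits no share of all genes at an unadjusted p under 0.05 is given. Their counts of higher members at that p thus have no background to be set against. Lying wholly above or below CK is easier with fewer libraries, so those counts cannot be set against the main 21 and 7. Without CD replicate 1, 22 members (41.5%) were above, against 35.6% of all genes, and 20 (37.7%) below, against 36.6%. Without CD replicate 2, 41 (77.4%) were above, against 36.2% of all genes, and 9 (17.0%) below, against 39.2%. Shares of all genes are not given for the fits without a CK library.

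The labels give CD and CK the same replicate numbers but nothing that pairs them. With a replicate block edgeR called 0 genes, as without it, and the members' median was 0.43. The deviations of same-numbered libraries correlated at -0.204, and with the numbers crossed, a block chosen after seeing the data, edgeR called 0 genes. LOC_Os02g53100, under 1 TPM, had 6 to 25 counts a library, so its value rests on few reads.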

Other observations

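Beside the WRKY members on chromosome 12, other genes that the list does not hold also stood higher with carbon dots. They were chosen after their values were seen and have no name in the sources used. Whether they are WRKY genes themselves was not checked. LOC_Os12g02470 was at 1.23 and 0.637 CPM in CD, compared to 0.154 and 0.274 CPM in CK (log2 fold change 2.14 ± 0.59), and LOC_Os12g02400 was at 1.43 and 2.47 CPM against 0.502 and 1.03 CPM (1.35 ± 0.52). Neither was called by DESeq2 (adjusted p = 0.137 and 0.332). Among all 14 other genes tested within 50 kb there, 3 were above 0, and the median was -0.24.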
